A study of Homo sapiens with 13 samples.

Results

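The sterol and fatty acid synthesis genes were 36 genes listed by symbol, in 3 groups by role: 18 enzymes of sterol synthesis, 8 regulators and associated proteins, and 10 enzymes of fatty acid synthesis and modification. A gene was taken where the platform annotation gave its symbol alone to a row of the table, and 34 of the 36 had such a row, each exactly 1, among 18377 genes measured in all. They were 16 sterol enzymes, 8 regulators and 10 fatty acid enzymes. FDFT1 and HSD17B7, both enzymes of the sterol pathway, had no such row, and their expression is not analysed here. The study compared HepG2S1, a sorafenib-resistant line, with HepG2, the human liver tumour line from which the labels say it was derived over several months of slowly raised sorafenib. Sorafenib is a kinase inhibitor given against liver cancer. The groups were HepG2S1 cells with 6 µM sorafenib at 2% O2 (n = 3), HepG2S1 cells kept without sorafenib, called withdrawn, at 20% O2 (n = 3), HepG2S1 cells with 6 µM sorafenib at 20% O2 (n = 4), and HepG2 cells without the drug at 20% O2 (n = 3). Each sample was 1 flask harvested after 72 h and measured on 1 Affymetrix whole-transcript array, and flasks are called here by the numbers in their labels. All groups grew in Williams medium E with 10% fetal calf serum, 20 mU/ml insulin and 50 nM dexamethasone, so that insulin, serum lipids and a glucocorticoid were present throughout. Sorafenib was dissolved in DMSO. Whether HepG2 or withdrawn cells received DMSO, whether HepG2S1 is a single clone, and whether flasks came from separate cultures are not stated. The p-values therefore rest on the spread between flasks, which may be technical.

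Cholesterol is built from acetyl-CoA through mevalonate, isoprenoid and squalene intermediates, and fatty acids are built from acetyl-CoA through malonyl-CoA and palmitate. The transcription factors SREBP-1 and SREBP-2, encoded by SREBF1 and SREBF2, drive the fatty acid and the sterol genes, with overlap. SCAP carries them from the endoplasmic reticulum to the Golgi for cleavage when sterols are scarce, and INSIG1 and INSIG2 hold SCAP back when sterols are plentiful. In liver, insulin through SREBP-1 and glucose through ChREBP, the product of MLXIPL, raise fatty acid synthesis.

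The 13 arrays had median log2 values between 7.30 and 7.42. Precision is limited by the number of arrays. Across all genes, arrays of 1 group correlated at 0.995 to 0.999, arrays of 2 HepG2S1 groups at 0.990 to 0.995, and arrays of the 2 lines at 0.863 to 0.875. All 15 measured hepatocyte markers of 16 listed were lower in HepG2S1 cells with the drug than in HepG2 cells. Over all genes 27.2% were lower and 30.1% higher in that comparison. Their mean log2 value was 5.80 to 5.85 at 2% O2, 5.93 to 5.96 after withdrawal and 5.91 to 5.93 with the drug at 20% O2, against 12.61 to 12.62 in HepG2 cells. In each HepG2S1 group 8 of the 15 lay below a floor of 5.76 (the lower quartile of an array, as a median over arrays), so that most defining hepatocyte markers were at or near background in the line labelled as derived from HepG2. Of 10 fibroblast and stellate markers 3 were higher (DCN, LUM and FAP), 1 was lower (RELN) and 6 did not pass. Their median log2 fold change was 0.03, while the list means were 7.83 to 7.87 with the drug against 6.97 to 7.09 in HepG2 cells. Of 4 squamous epithelial markers 3 were higher (KRT5, SERPINB3 and SERPINB5), with list means of 8.50 to 8.62 with the drug against 6.25 to 6.42 in HepG2 cells. The median log2 fold change over these 4 was 0.92 and the largest, of SERPINB5, was 6.80, while KRT14 did not pass. Endothelial, blood and adipocyte markers had list means of 5.82 to 6.01, 7.18 to 7.24 and 6.31 to 6.40 with the drug, against 6.09 to 6.30, 7.13 to 7.22 and 6.36 to 6.64 in HepG2 cells. The part of this wide difference between the lines in the results for the sterol and fatty acid genes was not tested. The arrays measured bulk RNA, in which fewer cells of a type and less RNA per cell cannot be told apart. No group mean of any of the 34 genes lay below the floor.

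Promoter sequence was taken for 32 of the 36 genes from the RefSeq table of build GRCh38.p14, as the 250 bases before the gene start. No window was available for FASN, SQLE, ACAT2 and FDFT1. The 32 include HSD17B7, which held CCAAT but whose expression was not measured by a row of its own. Both strands were searched for the letters TCACNCCAC, a form of the sterol regulatory element bound by SREBP, CCAAT, the box bound by the co-factor NF-Y, and CACGTG, an E-box form bound by USF and ChREBP-type factors. CCAAT was found in 20 of the 32 genes (12 of 15 sterol enzymes, 4 of 8 regulators and 4 of 9 fatty acid enzymes), against 34.4% of 14210 measured genes with a window of the same length. CACGTG was found in 4 genes, SC5D, INSIG1, SCAP and ELOVL5, against 7.86% of all genes. TCACNCCAC was found in 1 gene, SREBF2, against 0.873%. A match is a description of the letters, and a window without one says nothing about the factor. Positions are counted back from the gene start at the first base of a match.

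5 windows are shown, because the results on these genes differ in kind. MSMO1 fell most among the sterol enzymes at 2% O2, NSDHL rose most among them on withdrawal, INSIG1 and INSIG2 differed between the lines in opposite directions, and SREBF2 held the only TCACNCCAC. Capitals mark motif matches, written on the strand of the gene, 5′ to 3′, so that a CCAAT of the opposite strand reads ATTGG. The MSMO1 window (chr4:165327419-165327668, plus strand) held 4 CCAAT matches, at -185, -139, -76 and -34. The NSDHL window (chrX:152830813-152831062, plus strand) held 5 CCAAT matches, of which those at -113 and -110 overlap. The INSIG1 window (chr7:155297628-155297877, plus strand) held CCAAT at -170 and CACGTG at -55. The INSIG2 window (chr2:118088221-118088470, plus strand) held none of the 3 motifs. The SREBF2 window (chr22:41832855-41833104, plus strand) held TCACNCCAC at -133 and CCAAT at -106.
MSMO1: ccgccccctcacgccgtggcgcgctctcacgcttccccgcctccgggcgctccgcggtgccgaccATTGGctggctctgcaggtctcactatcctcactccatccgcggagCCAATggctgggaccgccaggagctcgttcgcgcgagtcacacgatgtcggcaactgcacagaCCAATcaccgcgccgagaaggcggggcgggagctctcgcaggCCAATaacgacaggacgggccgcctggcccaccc
NSDHL: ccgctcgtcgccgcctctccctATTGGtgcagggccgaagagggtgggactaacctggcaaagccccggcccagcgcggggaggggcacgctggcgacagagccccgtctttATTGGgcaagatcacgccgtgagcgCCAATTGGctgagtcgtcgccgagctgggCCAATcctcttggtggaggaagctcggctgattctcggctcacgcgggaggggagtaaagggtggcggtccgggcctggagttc
INSIG1: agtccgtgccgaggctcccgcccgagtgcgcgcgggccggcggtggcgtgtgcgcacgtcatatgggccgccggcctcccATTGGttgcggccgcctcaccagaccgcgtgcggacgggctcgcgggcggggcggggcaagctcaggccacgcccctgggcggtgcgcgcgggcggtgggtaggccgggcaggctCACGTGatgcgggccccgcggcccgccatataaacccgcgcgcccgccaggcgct
INSIG2: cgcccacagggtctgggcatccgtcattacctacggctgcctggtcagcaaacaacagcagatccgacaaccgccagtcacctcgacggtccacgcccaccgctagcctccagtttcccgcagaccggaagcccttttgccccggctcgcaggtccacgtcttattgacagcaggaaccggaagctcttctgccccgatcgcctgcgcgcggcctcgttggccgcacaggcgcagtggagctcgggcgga
SREBF2: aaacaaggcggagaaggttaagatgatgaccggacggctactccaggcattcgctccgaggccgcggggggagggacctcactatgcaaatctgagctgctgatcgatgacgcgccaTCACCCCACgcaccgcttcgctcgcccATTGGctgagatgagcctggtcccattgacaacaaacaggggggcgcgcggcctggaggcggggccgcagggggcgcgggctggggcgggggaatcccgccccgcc

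**Figure D1:**
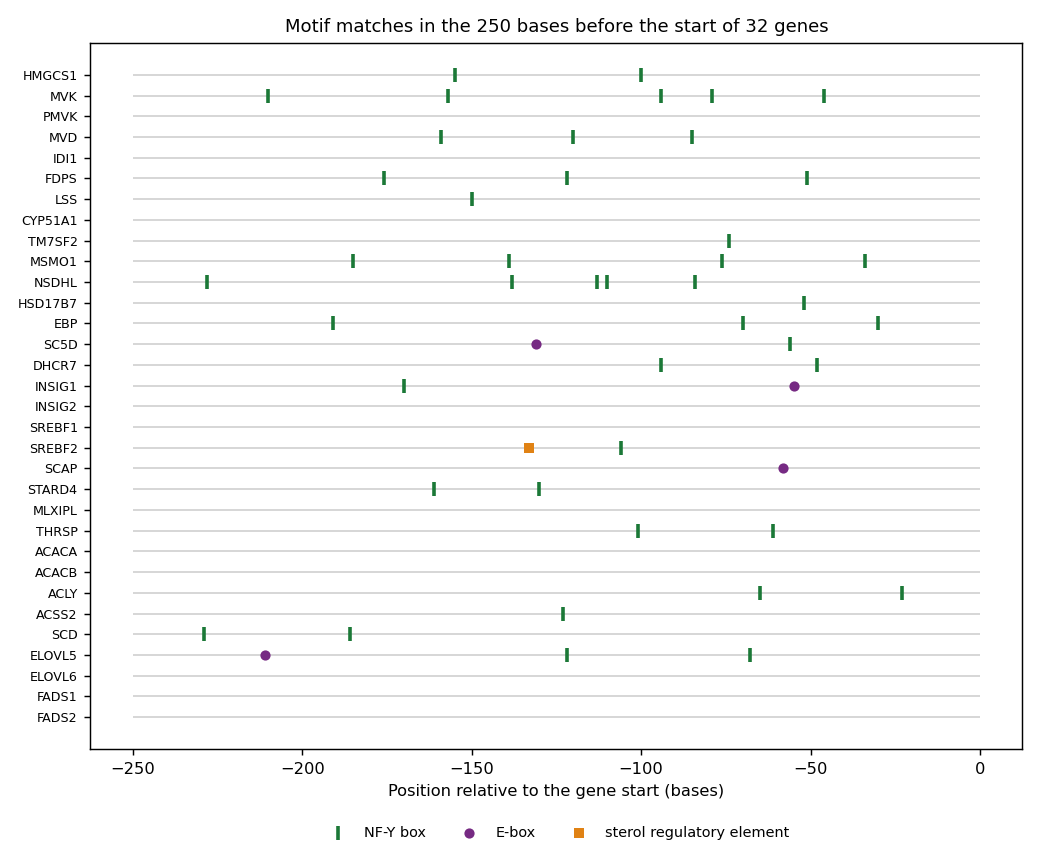
Positions of motif matches in the 250 bases before the start of 32 genes, with the horizontal axis in bases from the start and 1 line per gene. Green ticks are CCAAT (NF-Y box), purple circles CACGTG (E-box) and the orange square TCACNCCAC (sterol regulatory element), which appeared in SREBF2 alone of these genes. CCAAT lay in 20 of the 32 windows, up to 5 times in MVK and in NSDHL.

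Drug-exposed HepG2S1 cells at 20% O2 were first set against HepG2 cells, to ask how the resistant line differed from its labelled parent. The line and the drug differ together in this comparison, and it cannot tell them apart. A change given with the drug is that of drug-exposed HepG2S1 cells relative to HepG2 cells. Both arms were mostly lower in HepG2S1. Of 16 sterol enzymes 13 were lower and 3 higher in limma at an adjusted p under 0.05, where 27.2% of all genes passed lower and 30.1% higher. Their median log2 fold change was -0.82, against 0.01 over all genes. Of 10 fatty acid enzymes 7 were lower, 2 higher and 1 did not pass (median -0.43). Of 8 regulators 5 were lower, 1 higher and 2 did not pass (median -0.43). The 31 calls held in every alternative setting run, leaving out each array in turn included.

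TM7SF2, a sterol reductase of the steps after lanosterol, had log2 values of 7.60, 7.38 and 7.69 at 2% O2, 7.44, 7.52 and 7.51 after withdrawal, 7.63, 7.77, 7.67 and 7.70 with the drug at 20% O2, and 9.29, 9.56 and 9.60 in HepG2 cells. All 10 HepG2S1 arrays lay well below the 3 HepG2 arrays, with the HepG2S1 groups close together. The log2 fold change with the drug was -1.80 ± 0.082 (SE; adjusted p = 2.28e-11), or 3.47-fold lower, the largest among the sterol enzymes. MSMO1, an oxidase that acts in the removal of methyl groups from the sterol nucleus, had values of 10.25, 10.16 and 9.93 at 2% O2, 10.47, 10.56 and 10.52 after withdrawal, 10.56, 10.37, 10.60 and 10.67 with the drug at 20% O2, and 12.10, 12.05 and 11.97 in HepG2 cells. Here too the lines were fully separate, and the 2% O2 arrays were the lowest of all. MSMO1 was lower by 1.49 on the log2 scale in HepG2S1 with the drug than in HepG2 (SE 0.081, adjusted p = 2.02e-10). SQLE, the epoxidase that commits squalene to sterols, had values of 10.52, 10.30 and 10.25 at 2% O2, 10.40, 10.37 and 10.42 after withdrawal, 10.47, 10.53, 10.47 and 10.52 with the drug at 20% O2, and 12.04, 11.93 and 11.99 in HepG2 cells. The HepG2S1 groups lay together, far below HepG2. Its log2 fold change was -1.49 (adjusted p = 6.47e-12).

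The mevalonate steps did not move as 1 block. HMGCS1, the synthase that makes HMG-CoA, was lower, at -1.37 on the log2 scale, ACAT2, the cytosolic thiolase that precedes it, at -1.02, MVK, mevalonate kinase, at -0.85, and MVD, the decarboxylase, at -0.81. IDI1, the isopentenyl diphosphate isomerase, was lower, at -0.29. PMVK, phosphomevalonate kinase, was higher by 0.62 and FDPS, farnesyl diphosphate synthase, by 0.61, so that enzymes of adjoining steps differed in direction. FDPS and SCD have pseudogene copies in the genome, and whether the probes tell them apart was not tested. After squalene, LSS, which closes the ring to lanosterol, had a log2 fold change of -0.83, and DHCR7, a terminal reductase of the pathway, one of -1.07. CYP51A1, the lanosterol demethylase, NSDHL, which acts with MSMO1, and SC5D, a desaturase, had smaller changes of -0.35, -0.38 and -0.28. EBP, the isomerase between these steps, was the third enzyme higher in HepG2S1, at 0.68 (adjusted p = 5e-09). The arrays of the 2 groups did not overlap for any of the 16, as they did not for 56.2% of all genes.

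INSIG1 and INSIG2, the paired anchors of SCAP, differed between the lines in opposite directions. INSIG1 had log2 values of 10.36, 10.38 and 10.05 at 2% O2, 9.75, 9.63 and 9.59 after withdrawal, 9.56, 9.76, 9.44 and 9.59 with the drug at 20% O2, and 6.49, 6.39 and 6.80 in HepG2 cells. It was low in HepG2, high in both groups at 20% O2 and highest at 2% O2, with no overlap between HepG2 and any HepG2S1 group. INSIG1 was higher by 3.03 ± 0.104 (SE; adjusted p = 7.71e-13), or 8.14-fold, in HepG2S1 with the drug than in HepG2. On the HepG2 arrays INSIG1 lay at percentiles 22.3 to 30.4 of all genes, so the fold is set against a low value. INSIG2 had values of 9.62, 9.96 and 9.33 at 2% O2, 8.50, 8.41 and 8.16 after withdrawal, 8.44, 8.26, 8.37 and 8.37 with the drug at 20% O2, and 9.75, 9.53 and 9.29 in HepG2 cells. The 2 HepG2S1 groups at 20% O2 were low and overlapped, while the 2% O2 and the HepG2 arrays were high and overlapped each other. INSIG2 was lower by 1.16 on the log2 scale in HepG2S1 with the drug at 20% O2 than in HepG2 (SE 0.132, adjusted p = 1.29e-06). It was also the most variable of the 34 genes in 3 of the 4 groups, with an SD of 0.315 at 2% O2, where the median SD of the genes was 0.059.

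The SREBP genes themselves were lower in HepG2S1. SREBF2 had values of 9.71, 9.66 and 9.69 at 2% O2, 9.88, 9.79 and 9.82 after withdrawal, 9.81, 9.75, 9.72 and 9.75 with the drug at 20% O2, and 10.42, 10.30 and 10.54 in HepG2 cells. All HepG2S1 arrays were below the HepG2 arrays, and the log2 fold change with the drug was -0.66 (SE 0.057, adjusted p = 5.14e-08). SREBF1 had values of 8.79, 9.03 and 8.95 at 2% O2, 9.39, 9.35 and 9.29 after withdrawal, 8.97, 8.93, 8.87 and 8.87 with the drug at 20% O2, and 9.33, 9.34 and 9.50 in HepG2 cells. Drug-exposed arrays at both oxygen levels were low, and withdrawn arrays overlapped those of HepG2. With the drug SREBF1 differed from HepG2 at -0.48 (adjusted p = 7.83e-06). SCAP, the carrier of both factors, was lower, at -0.38.

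MLXIPL, the gene of the glucose-responsive factor ChREBP, lay furthest below HepG2 of the 34 genes. Its values were 7.14, 7.36 and 7.45 at 2% O2, 7.44, 7.26 and 7.37 after withdrawal, 7.50, 7.86, 7.66 and 7.60 with the drug at 20% O2, and 10.74, 10.81 and 10.77 in HepG2 cells. HepG2 arrays stood far above all HepG2S1 arrays, which spread over less than the distance between the lines. The log2 fold change with the drug was -3.13 ± 0.085 (SE; adjusted p = 4.45e-14), or 8.72-fold lower. STARD4, a cytosolic sterol carrier, and THRSP, a lipogenic protein of liver and fat, did not pass. STARD4 was at 0.05 (95% interval -0.11 to 0.20) and THRSP at 0.04 (95% interval -0.12 to 0.20).

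**Figure D2:**
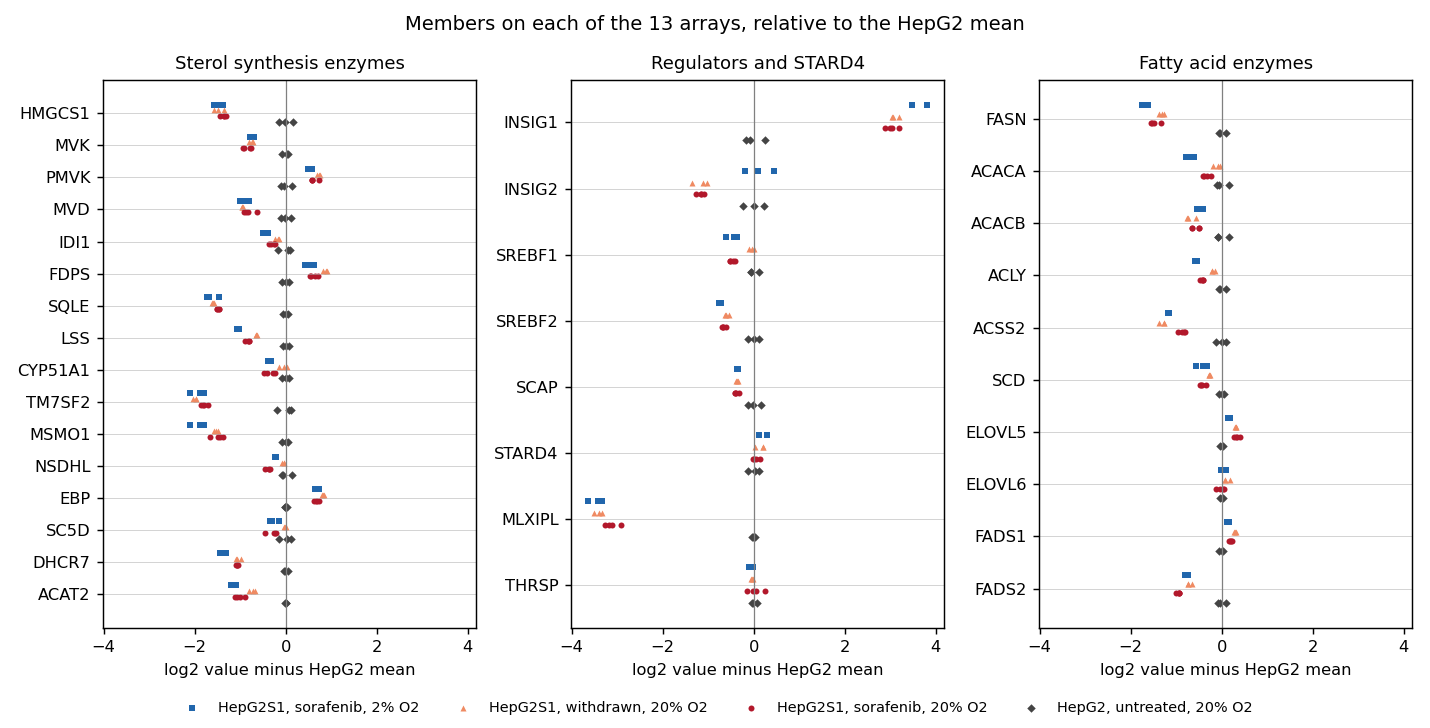
Log2 values of the 34 genes on each of the 13 arrays, after subtraction of the mean of the 3 HepG2 arrays for that gene, so that 0 on the horizontal axis is the HepG2 mean. Each marker is 1 array, blue squares for HepG2S1 with sorafenib at 2% O2, orange triangles for withdrawn HepG2S1, red circles for HepG2S1 with sorafenib at 20% O2 and grey diamonds for HepG2. INSIG1 lies to the right and MLXIPL to the left by about the same distance, most enzymes lie to the left, and PMVK, FDPS, EBP, ELOVL5 and FADS1 lie to the right.

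In the fatty acid arm FASN, the synthase that builds palmitate, lay furthest below HepG2. FASN had values of 10.01, 9.88 and 9.92 at 2% O2, 10.26, 10.33 and 10.36 after withdrawal, 10.14, 10.30, 10.07 and 10.10 with the drug at 20% O2, and 11.59, 11.57 and 11.72 in HepG2 cells. The lines did not overlap, and among HepG2S1 arrays those at 2% O2 were the lowest. Its log2 fold change with the drug was -1.48 ± 0.064 (SE; adjusted p = 1.24e-11), or 2.79-fold lower. FADS2, the desaturase that begins the making of polyunsaturated fatty acids, had values of 9.88, 9.82 and 9.89 at 2% O2, 9.98, 9.89 and 9.89 after withdrawal, 9.68, 9.70, 9.70 and 9.63 with the drug at 20% O2, and 10.60, 10.55 and 10.73 in HepG2 cells. HepG2 was highest, and the drug-exposed arrays at 20% O2 were the lowest. FADS2 was lower than in HepG2 by 0.95 on the log2 scale (SE 0.054, adjusted p = 3.2e-10). SCD, the stearoyl-CoA desaturase, had values of 12.54, 12.45 and 12.30 at 2% O2, 12.57, 12.59 and 12.58 after withdrawal, 12.42, 12.37, 12.50 and 12.39 with the drug at 20% O2, and 12.91, 12.80 and 12.85 in HepG2 cells. HepG2 arrays were above all others, with a log2 fold change of -0.43 (adjusted p = 1.09e-05).

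ACSS2 and ACLY, which make cytosolic acetyl-CoA from acetate and from citrate, were lower, at -0.86 and -0.42. ACACA and ACACB, the acetyl-CoA carboxylases, were lower, at -0.34 and -0.57. ELOVL5, an elongase of polyunsaturated fatty acids, was higher by 0.33 (adjusted p = 2.32e-05) and FADS1, the desaturase whose gene neighbours FADS2, by 0.19 (adjusted p = 0.00189), where FADS2 was lower. ELOVL6, which elongates palmitate, was at -0.03 (95% interval -0.15 to 0.09) and did not pass.

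The other genes of the pathway did not share the direction of the enzymes in every list. Over all genes 30.1% were higher and 27.2% lower in this comparison. Of 10 isoprenoid branch enzymes 2 were higher, 3 lower and 5 did not pass (median 0.01). NUS1, a subunit of the dolichol-making transferase, was at -0.56. LBR, counted in this list although it is a sterol reductase, of the nuclear envelope, was at -0.51. Of 16 genes of SREBP processing and sterol sensing 6 were higher, 4 lower and 6 did not pass (median 0.02). SP1, a general co-activator of SREBP targets, was higher by 0.96 and RNF145, a sterol-responsive ubiquitin ligase, by 0.85. Of 18 genes of sterol transport, esterification and efflux 12 were lower, 4 higher and 2 did not pass (median -0.27). ABCA1, the cholesterol efflux pump, was at -4.55 and OSBPL1A, an oxysterol-binding protein relative, at 4.40. Of 25 genes of fatty acid supply, elongation, activation and esterification 12 were lower, 9 higher and 4 did not pass (median -0.20). ACSL5, an acyl-CoA synthetase, was at -5.91 and ELOVL2, an elongase of long polyunsaturated chains, at -5.54.

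The second comparison set withdrawn HepG2S1 cells against HepG2S1 cells with sorafenib, both at 20% O2, and asked what 72 h without the drug changed. The changes were small, and of the 12 members that passed 10 were higher. Of 16 sterol enzymes 6 rose, 0 fell and 10 did not pass, where 10.1% of all genes rose and 7.90% fell. At an unadjusted p under 0.05, 7 were higher and 1 was lower. With genes of low mean level filtered out, 2033 of 12312 genes rose and 1575 fell, or 29.3% called in place of 18.0%. Over all genes 1852 were higher and 1451 lower, and with arrays shifted to the same 75th percentile 1542 were higher and 1757 lower, with 6 sterol enzymes higher and 0 lower there too. The median of the sterol enzymes was 0.11, against -0.02 over all genes. Of 10 fatty acid enzymes 3 rose, 1 fell and 6 did not pass, around a median of 0.15. Of 8 regulators 1 rose, 1 fell and 6 did not pass, around a median of 0.04.

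NSDHL had log2 values of 10.88, 10.88 and 10.83 in withdrawn cells and 10.57, 10.55, 10.54 and 10.47 with the drug at 20% O2, beside 10.69, 10.71 and 10.68 at 2% O2 and 10.86, 10.83 and 11.06 in HepG2 cells. Withdrawn arrays reached the HepG2 range, and the drug-exposed arrays at 20% O2 were the lowest. NSDHL rose by 0.33 ± 0.058 (SE; adjusted p = 0.00116). CYP51A1 had values of 10.55, 10.62 and 10.44 in withdrawn cells and 10.30, 10.35, 10.16 and 10.11 with the drug, beside 10.25, 10.20 and 10.20 at 2% O2 and 10.51, 10.58 and 10.66 in HepG2 cells. Its withdrawn arrays also overlapped those of HepG2, and both drug-exposed groups lay lower. CYP51A1 rose by 0.31 ± 0.066 (SE; adjusted p = 0.00443). ACAT2 rose by 0.29, SC5D by 0.27, FDPS by 0.26 and LSS by 0.19. FDPS, which was already higher in HepG2S1 than in HepG2, thus rose further. The call of LSS was lost without flask 14 or 15 (0.19 and 0.18, adjusted p = 0.0513 and 0.0542). The call of SC5D was lost without flask 7, 13, 14 or 15, at 0.21 to 0.28 (adjusted p = 0.0538 to 0.0809). The other sterol enzymes did not pass. HMGCS1 was at -0.10, MVK at 0.09, PMVK at 0.11, MVD at -0.13, IDI1 at 0.11, SQLE at -0.10, MSMO1 at -0.03, EBP at 0.14 and DHCR7 at 0.02. TM7SF2 was at -0.20 (95% interval -0.38 to -0.03, adjusted p = 0.11). The withdrawn arrays of TM7SF2, MVD and SQLE all lay below those with the drug, and those of EBP all lay above. Arrays of these 2 groups were separate for 30.2% of all genes.

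SREBF1 rose by 0.44 ± 0.064 (SE; adjusted p = 0.000283) on withdrawal, with all 3 withdrawn arrays above the 4 with the drug, and was the regulator that rose. SREBF2, at 0.07, did not pass (95% interval -0.05 to 0.19). INSIG1, at 0.07, SCAP, at 0.01, and INSIG2, with a 95% interval of -0.29 to 0.28, did not pass. MLXIPL fell by 0.30 on the log2 scale (adjusted p = 0.0249), which moved it further from HepG2. This call was lost without flask 7, 9, 14 or 15, at -0.30 to -0.23 (adjusted p = 0.0527 to 0.127). STARD4 was at 0.10 and THRSP at -0.07, and neither passed.

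In the fatty acid arm acetyl-CoA supply split. ACSS2 had values of 9.42, 9.43 and 9.31 in withdrawn cells and 9.89, 9.82, 9.72 and 9.86 with the drug at 20% O2, beside 9.50, 9.54 and 9.51 at 2% O2 and 10.70, 10.57 and 10.79 in HepG2 cells. The withdrawn arrays were the lowest of all, the 2% O2 arrays lay just above them, and HepG2 was far higher. ACSS2 fell by 0.44 on the log2 scale (SE 0.061, adjusted p = 0.000197). ACLY rose by 0.23, FADS2 by 0.24 and ACACA by 0.23. The call of ACACA was lost without flask 7, 9, 10, 13 or 14, at 0.20 to 0.24 (adjusted p = 0.0609 to 0.149). FASN, at 0.16, did not pass (adjusted p = 0.103) but passed without flask 7, at 0.21 (adjusted p = 0.0258). SCD was at 0.16, ELOVL6 at 0.14, FADS1 at 0.10, ELOVL5 at -0.03 and ACACB at -0.11, and none passed. The withdrawn arrays of SCD, ELOVL6 and FADS1 all lay above those with the drug at 20% O2. Of 10 fatty acid enzymes 7 were higher and 1 lower at an unadjusted p under 0.05.

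Markers of other cell types were counted on withdrawal as well, where 18.0% of all genes passed. The squamous epithelial list had 3 of 4 genes higher and list means of 9.26 to 9.36 after withdrawal against 8.50 to 8.62 with the drug. DCN and LUM were the 2 of 10 fibroblast markers that passed, both higher, and APOA2 and RBP4 the 2 of 15 hepatocyte markers, both higher. Of 5 blood markers CD68 fell by 0.55, and none of 5 endothelial or 5 adipocyte markers passed in limma, with 0 at an unadjusted p under 0.05. Their part in the results was not tested. Among the other lists, PDSS1, of coenzyme Q side-chain synthesis, rose by 0.58 and DHDDS, of dolichol synthesis, fell by 0.22, the only 2 of 10 isoprenoid enzymes that passed. NFYB, with overlapping arrays, and NFYA, both subunits of NF-Y, rose by 0.30 and 0.29, and 1 gene fell and 13 did not pass of the 16 in the SREBP processing list. Of 18 sterol transport genes 4 rose and 3 fell, among them NPC2, which exports cholesterol from lysosomes, at -0.44, and LPCAT3, a phospholipid acyltransferase, at 0.32. Of 25 fatty acid supply genes 3 rose and 1 fell, with ELOVL3, an elongase, at 0.52 and DGAT1, which makes triglyceride, at -0.29.

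Low oxygen was tested in the presence of the drug, with HepG2S1 cells at 2% O2 against those at 20% O2. Both INSIG genes rose, while the enzymes that passed were mostly lower. Of 16 sterol enzymes 3 fell, 0 rose and 13 did not pass, where 6.17% of all genes fell and 8.99% rose. At an unadjusted p under 0.05, 1 was higher and 5 were lower. With genes of low mean level filtered out, 1768 of 12312 genes rose and 1136 fell, or 23.6% called in place of 15.2%. The median of the sterol enzymes was -0.10, against -0.03 over all genes. Of 10 fatty acid enzymes 4 fell, 1 rose and 5 did not pass, around a median of -0.10. Of 8 regulators 2 rose, 1 fell and 5 did not pass, around a median of 0.02. Over all genes 1653 were higher and 1133 lower, and with arrays shifted to the same 75th percentile 1189 were higher and 2529 lower. Leaving out flask 16 gave 1140 higher and 582 lower, leaving out flask 17 gave 1077 and 521, and leaving out flask 10 gave 1190 and 698.

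INSIG2 had the largest change of the 34 genes here, and ranked 41 of all 18377 genes by size of change. It rose by 1.27 ± 0.132 (SE; adjusted p = 1.24e-05), or 2.42-fold, with the 3 arrays at 2% O2 above the 4 at 20% O2 and spread more widely among themselves. Its mean was 9.63 at 2% O2 and 8.36 at 20% O2 with the drug, beside 9.52 in HepG2 cells, whose array range overlapped that at 2% O2. INSIG1 rose by 0.68 ± 0.104 (SE; adjusted p = 0.000508), with all arrays separate, as they were for 28.2% of all genes. SREBF1 was at 0.02 (95% interval -0.12 to 0.15), SREBF2 at -0.07 and SCAP at 0.03, and none of the 3 passed. STARD4, at 0.18, did not pass (adjusted p = 0.102) but passed without flask 18, at 0.25 (adjusted p = 0.0473). MLXIPL fell by 0.34 on the log2 scale (adjusted p = 0.0164), a call that was lost without flask 16 (-0.25, adjusted p = 0.0948). THRSP was at -0.09.

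**Figure D3:**
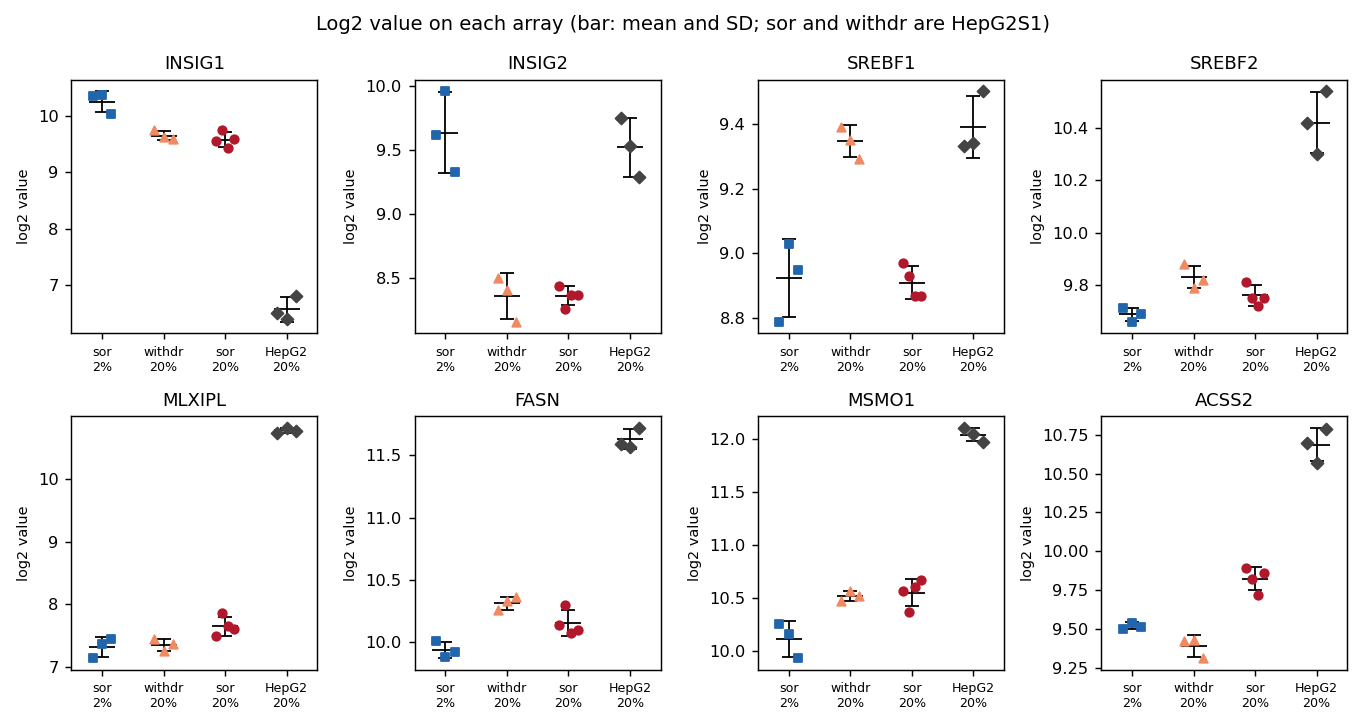
Log2 values of 8 genes on each array, with 1 marker per array, a bar for the group mean and whiskers of 1 SD, in HepG2S1 cells with sorafenib at 2% O2, withdrawn at 20% O2 and with sorafenib at 20% O2, and in HepG2 cells (from left to right). Vertical axes differ between genes and do not start at 0. INSIG2 at 2% O2 and SREBF1 after withdrawal overlap HepG2, while INSIG1, MLXIPL, FASN, MSMO1 and ACSS2 keep the lines apart in all 3 HepG2S1 groups.

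DHCR7 had values of 10.29, 10.17 and 10.17 at 2% O2 and 10.53, 10.55, 10.53 and 10.52 at 20% O2 with the drug, beside 10.62, 10.54 and 10.52 after withdrawal and 11.56, 11.60 and 11.66 in HepG2 cells. The arrays at 2% O2 lay below every other array, and the 2 groups at 20% O2 overlapped. DHCR7 fell by 0.33 on the log2 scale (SE 0.051, adjusted p = 0.000591). MSMO1 fell by 0.44 (SE 0.081, adjusted p = 0.00213) and LSS by 0.23 (adjusted p = 0.00564), both with separate arrays. SQLE, at -0.14, did not pass (adjusted p = 0.127) but passed without flask 16, at -0.22 (adjusted p = 0.0219). HMGCS1 was at -0.11, MVK at 0.11, PMVK at -0.07, MVD at -0.08, IDI1 at -0.16, FDPS at -0.08 and ACAT2 at -0.12, and none of these mevalonate enzymes passed. CYP51A1 was at -0.01, TM7SF2 at -0.13, NSDHL at 0.16 and SC5D at 0.01. EBP had a 95% interval of -0.10 to 0.10, and none of these passed. With arrays shifted to the same 75th percentile 6 sterol enzymes fell and 0 rose.

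ACACA had values of 9.32, 9.41 and 9.23 at 2% O2 and 9.77, 9.63, 9.69 and 9.61 at 20% O2 with the drug, beside 9.93, 9.98 and 9.83 after withdrawal and 9.95, 9.92 and 10.17 in HepG2 cells. The arrays at 2% O2 were the lowest, and withdrawn arrays overlapped those of HepG2. ACACA fell by 0.36 on the log2 scale (SE 0.071, adjusted p = 0.00344) and ACSS2 by 0.30 (adjusted p = 0.0039). FASN fell by 0.22 (adjusted p = 0.0356), which was lost without flask 6, 7, 10, 17 or 18, at -0.23 to -0.17 (adjusted p = 0.0506 to 0.146). ELOVL5 fell by 0.16 (adjusted p = 0.0373), which was lost without flask 6, 9, 10, 16, 17 or 18, at -0.18 to -0.14 (adjusted p = 0.0525 to 0.141). FADS2 rose by 0.19 (adjusted p = 0.0316), which was lost without flask 9, 10, 16, 17 or 18, at 0.17 to 0.21 (adjusted p = 0.0514 to 0.103). That call was also lost under both other scalings of the arrays, at 0.13 with the 75th percentile and 0.14 with repeated quantile normalization. ACLY was at -0.14 (adjusted p = 0.0718), SCD at 0.01, ELOVL6 at 0.06, FADS1 at -0.06 and ACACB at 0.09, and none passed.

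Over all genes 15.2% passed at 2% O2 against 20% O2. Among the other lists at 2% O2 none of 10 isoprenoid enzymes passed in limma, and 0 had an unadjusted p under 0.05. RNF145 rose by 0.24, the only call among 16 SREBP processing genes. Of 18 sterol transport genes 2 rose and 5 fell, with SCARB1, a lipoprotein receptor, at 0.40 and NPC1, which works with NPC2 in lysosomes, at -0.34. Of 25 fatty acid supply genes 1 rose and 3 fell, with LPIN1, a phosphatidate phosphatase, at -0.67 and DGAT2, which makes triglyceride, at -0.49. Of the marker genes, 2 of 15 hepatocyte markers (TF and VTN) and 1 of 10 fibroblast markers (PDGFRA) fell at 2% O2. DCN, of the fibroblast list, and TEK, 1 of 5 endothelial markers, rose by 0.52 and 0.37. The means of PDGFRA lay below the floor of 5.76 in both groups, and that of TEK did at 20% O2. No blood, squamous or adipocyte marker passed in limma, where 1 higher of 5, 1 higher and 1 lower of 4, and 1 lower of 5 had an unadjusted p under 0.05. The part of these markers in the results was not tested.

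**Figure D4:**
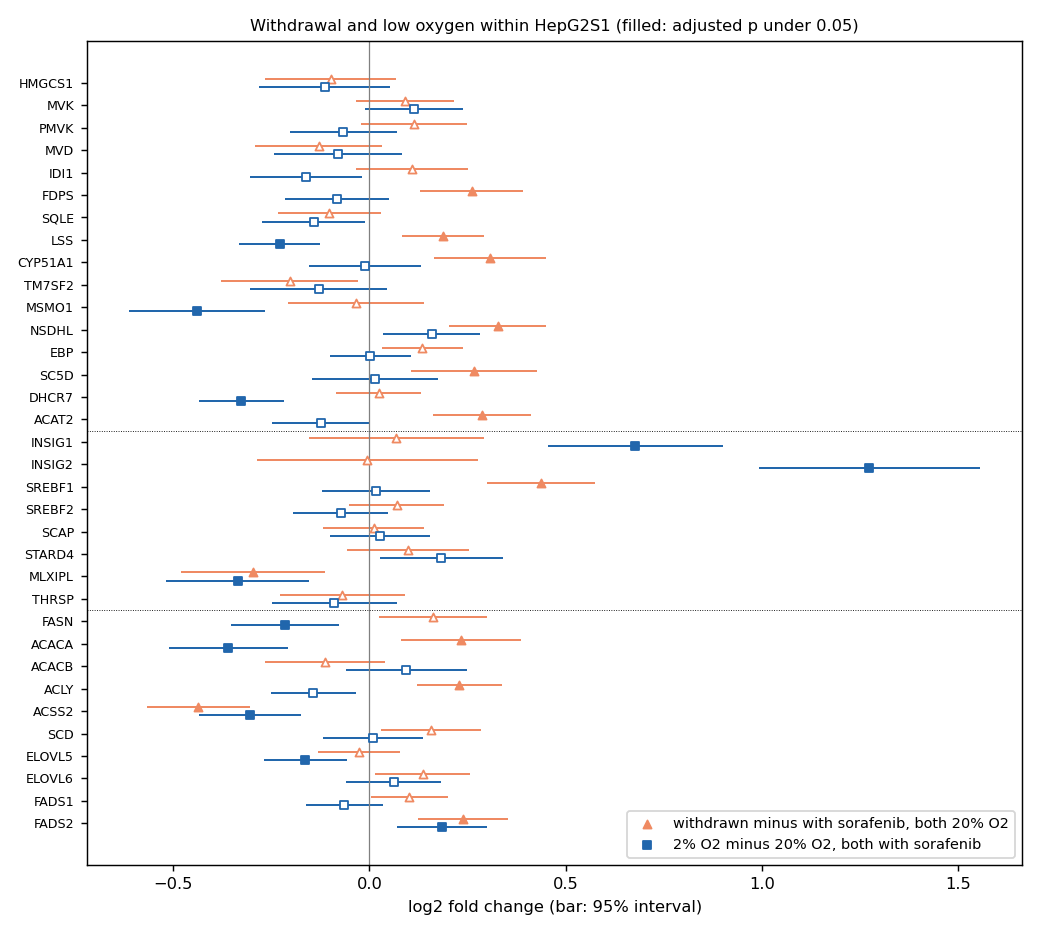
Log2 fold changes of the 34 genes on withdrawal (orange triangles, withdrawn minus with sorafenib at 20% O2) and at low oxygen (blue squares, 2% O2 minus 20% O2, both with sorafenib), with bars for 95% intervals and filled markers for an adjusted p under 0.05. Dotted lines part sterol enzymes, regulators and fatty acid enzymes. INSIG2 at 1.27 and INSIG1 at 0.68 stand apart at low oxygen, while SREBF1, at 0.44, and ACSS2, at -0.44, have the largest values on withdrawal.

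The fourth comparison set withdrawn HepG2S1 cells against HepG2 cells, both without the drug at 20% O2, and shares its arrays with the first 2 comparisons. Of 16 sterol enzymes 10 were lower, 3 higher and 3 did not pass (median -0.69), where 27.0% of all genes were lower and 29.6% higher and the median of all genes was -0.01. Of 10 fatty acid enzymes 6 were lower, 2 higher and 2 did not pass (median -0.23). Of 8 regulators 4 were lower, 1 higher and 3 did not pass (median -0.21). TM7SF2, 3.99-fold lower (adjusted p = 1.49e-11), SQLE, at -1.59, MSMO1, at -1.52, HMGCS1, at -1.47, and DHCR7, at -1.05, were lower in drug-free HepG2S1 as well. MVD, MVK, ACAT2 and LSS were lower, at -0.94, -0.76, -0.73 and -0.64. PMVK, FDPS and EBP were higher by 0.73, 0.87 and 0.82.

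5 genes that were lower with the drug did not pass against HepG2 after withdrawal. CYP51A1 was at -0.04 (95% interval -0.19 to 0.11), NSDHL at -0.05 (-0.19 to 0.08), SC5D at -0.01 (-0.19 to 0.16), SREBF1 at -0.04 (-0.19 to 0.10) and ACACA at -0.10 (-0.26 to 0.06). These intervals do not show that the levels were equal. ACACA was lower under both other scalings of the arrays, at -0.18 with the 75th percentile and -0.16 with repeated quantile normalization. The difference between their differences from HepG2 is the withdrawal comparison itself, in which CYP51A1 rose by 0.31, NSDHL by 0.33, SC5D by 0.27, SREBF1 by 0.44 and ACACA by 0.23. IDI1 was lower, at -0.18 (adjusted p = 0.0401) with overlapping arrays, and its call was lost without flask 1, 2, 13, 14 or 15, at -0.20 to -0.13 (adjusted p = 0.0511 to 0.165). INSIG1 was higher by 3.09 and MLXIPL lower, at -3.42 (SE 0.091, adjusted p = 3.77e-14). INSIG2 was lower, at -1.17, SREBF2 at -0.59 and SCAP at -0.37. STARD4, at 0.15, did not pass (adjusted p = 0.129) but passed without flask 15, at 0.21 (adjusted p = 0.0492), and THRSP was at -0.03.

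In the fatty acid arm FASN, at -1.32, and ACSS2, at -1.30, had the largest differences between drug-free HepG2S1 and HepG2. FADS2 was lower, at -0.71, ACACB at -0.68, SCD at -0.27 and ACLY at -0.19. ELOVL5 was higher by 0.31 and FADS1 by 0.29, and ELOVL6, at 0.11, did not pass. All 15 hepatocyte markers were lower and all 4 squamous markers higher in withdrawn cells than in HepG2 cells, with list means of 5.93 to 5.96 and 9.26 to 9.36 after withdrawal against 12.61 to 12.62 and 6.25 to 6.42 in HepG2 cells. Over all genes 56.6% passed in this comparison. Of 10 fibroblast markers 3 were higher, 2 lower and 5 did not pass (median -0.01). Of 5 endothelial markers 3 were lower, of 5 blood markers 1 was higher and 1 lower, and of 5 adipocyte markers 1 was higher and 2 lower. The part of these markers in the results was not tested.

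**Figure D5:**
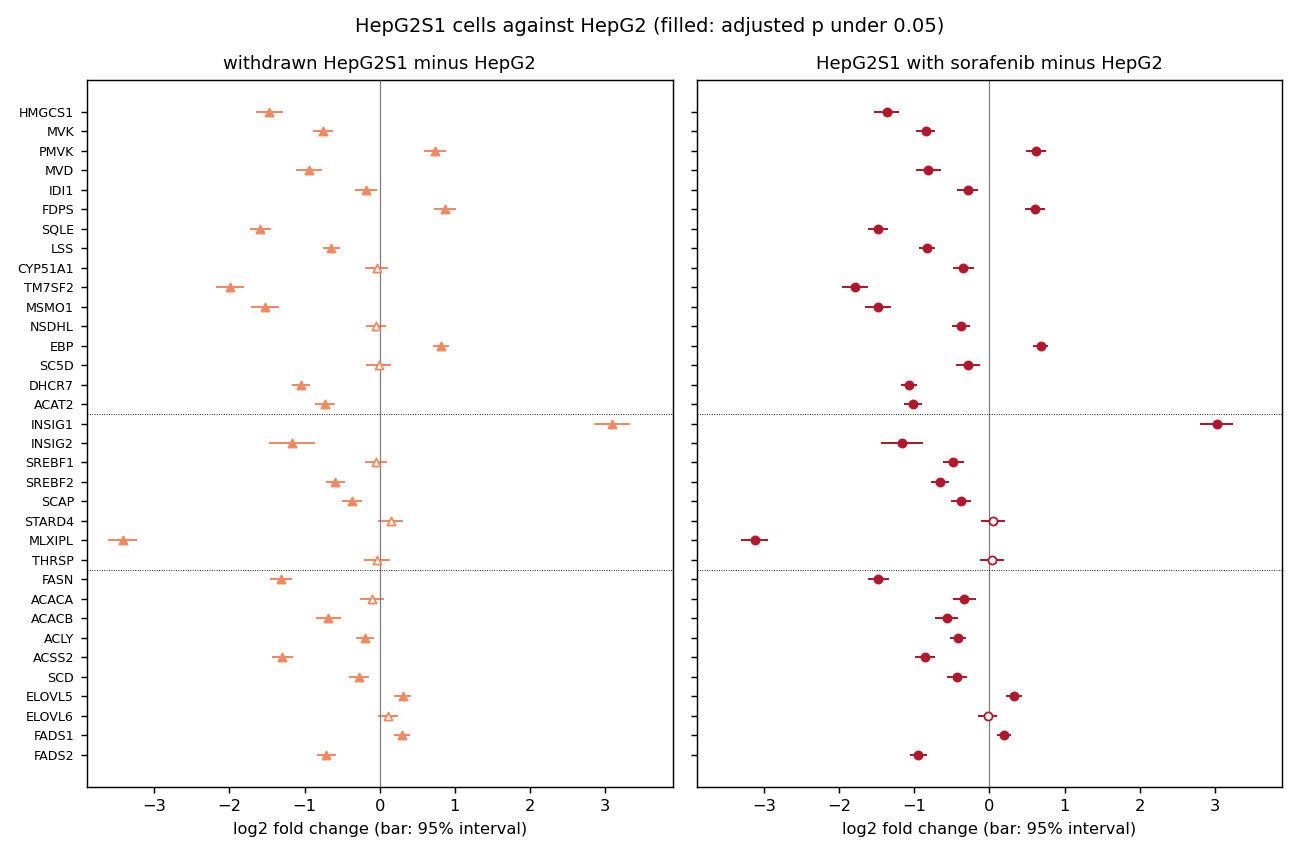
Log2 fold changes against HepG2 of the 34 genes in withdrawn HepG2S1 cells (left) and in HepG2S1 cells with sorafenib (right), both at 20% O2, with bars for 95% intervals and filled markers for an adjusted p under 0.05. The panels share the 3 HepG2 arrays. CYP51A1, NSDHL, SC5D, SREBF1 and ACACA are open near 0 on the left and filled on the right, while INSIG1 and MLXIPL lie about 3 units from 0 on opposite sides in both.

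In the last comparison drug-exposed HepG2S1 cells at 2% O2 were set against withdrawn HepG2S1 cells at 20% O2. It equals the difference between the low-oxygen and the withdrawal effects, because the arrays they share cancel, and the drug and oxygen differ together in it. Of 16 sterol enzymes 8 were lower, 0 higher and 8 did not pass (median -0.22), where 7.73% of all genes were lower and 10.8% higher and the median of all genes was -0.03. Over all genes 1992 were higher and 1420 lower, and with arrays shifted to the same 75th percentile 1689 were higher and 1802 lower. Of 10 fatty acid enzymes 4 were lower, 0 higher and 6 did not pass (median -0.14). At an unadjusted p under 0.05, 11 sterol enzymes were lower and 0 higher, and 6 fatty acid enzymes were lower and 1 higher. LSS was lower, at -0.42 ± 0.052 (SE; adjusted p = 6.17e-05) and ACAT2 at -0.41 ± 0.062 (SE; adjusted p = 0.000284), with all arrays of the 2 groups separate. MSMO1 was lower, at -0.41, DHCR7 at -0.35, FDPS at -0.34, CYP51A1 at -0.32, IDI1 at -0.27 and SC5D at -0.25. The call of IDI1 was lost without flask 14 or 17 (-0.25 and -0.26, adjusted p = 0.0648 and 0.0522), and that of SC5D without flask 13, 14, 15, 17 or 18, at -0.26 to -0.21 (adjusted p = 0.0778 to 0.12). HMGCS1, at -0.02, MVK, at 0.02, MVD, at 0.05, SQLE, at -0.04, and TM7SF2, at 0.07, did not pass. PMVK, at -0.18, NSDHL, at -0.17, and EBP, at -0.13, did not pass either. Their arrays in the 2 groups were separate, as they were for 38.0% of all genes.

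Of 8 regulators 2 were higher and 1 lower in this comparison. INSIG2 was higher by 1.28 (SE 0.141, adjusted p = 2e-05), rank 28 of all genes by size of change, and INSIG1 by 0.61 (adjusted p = 0.00133). SREBF1 was lower, at -0.42 (adjusted p = 0.000545). SREBF2 was at -0.14, MLXIPL at -0.04, SCAP at 0.02, STARD4 at 0.09 and THRSP at -0.02, and none of them passed. Among fatty acid enzymes ACACA was lower, at -0.59 ± 0.076 (SE; adjusted p = 7.4e-05), FASN at -0.38 (adjusted p = 0.00123), ACLY at -0.37 (adjusted p = 0.000221) and FADS1 at -0.16 (adjusted p = 0.0298). The call of FADS1 was lost without flask 13, 14, 15, 17 or 18, at -0.18 to -0.15 (adjusted p = 0.0629 to 0.0959). ACSS2, which fell both on withdrawal and at low oxygen, was at 0.13 (95% interval -0.01 to 0.27) and did not pass. ACACB, at 0.21, did not pass (adjusted p = 0.0776) but passed without flask 13, at 0.26 (adjusted p = 0.0463). SCD was at -0.15, ELOVL5 at -0.14, ELOVL6 at -0.07 and FADS2 at -0.05, and none passed. Among markers, KRT5, SERPINB3 and SERPINB5 of the squamous list, DCN and LUM of the fibroblast list, APOA2 and RBP4 of the hepatocyte list and FABP4 of the adipocyte list were lower at 2% O2 than after withdrawal. The means of FABP4 lay below the floor of 5.76 in both groups. CD68 of the blood list was higher, no endothelial marker passed in limma and 1 of 5 was higher at an unadjusted p under 0.05. The part of these markers in the results was not tested.

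Set side by side as means over arrays, HepG2 had the highest mean of the 4 groups in 24 of the 34 genes, 13 of 16 sterol enzymes, 4 of 8 regulators and 7 of 10 fatty acid enzymes among them. Within HepG2S1 the withdrawn cells had the highest mean in 19 genes and the cells at 2% O2 the lowest in 18. These counts take means alone, and many neighbouring means differed by less than the spread between flasks.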

How the data were processed

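RNA of 13 flasks was hybridised to Affymetrix whole-transcript arrays. The deposited table holds log2 expression values for 28926 rows, normalized with RMA per the submitters' processing notes (its version is not given in the sources used here). A row was given a gene where the platform annotation listed 1 symbol (19310 rows), and 1752 rows with several symbols and 7864 with none were left out. Symbols were updated through Entrez IDs, and the row with the highest mean was kept per gene, which left 18377 genes. RMA quantile normalization gives all arrays nearly the same distribution, so a shift of most genes together would not be seen. Values are comparable between arrays for 1 gene, not between genes.

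1 model over the 4 groups was fitted with limma 3.58.1 in R 4.3.3 (lmFit, eBayes), with 5 contrasts and p-values adjusted by Benjamini-Hochberg over all 18377 genes; "passed" means an adjusted p under 0.05. Intervals are at 95%. "Separate" arrays of 2 groups do not overlap in value. The script was tested on simulated data. Promoter letters were searched and tables made in Python 3.11.15, and figures with matplotlib 3.10.9. All members were named, values on every array were given for the 2 called members with the largest change in each group of genes in the first 3 comparisons and for INSIG1, INSIG2, SREBF1, SREBF2, FASN, SCD and SQLE, and up to 2 called genes were named per other list. The members and lists were chosen with earlier results of these data known. The alternatives were other variance moderation (trend, robust), the compared groups alone, array weights, 2 other scalings, a filter on low genes, the mean over rows of a gene, leaving out each array in turn and, added after seeing the data, HepG2S1 arrays alone. No array batch or scan date was used.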

Additional observations from a re-analysis of the deposited data

Results flagged for a closer look

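Among the 4 arrays of HepG2S1 cells with sorafenib at 20% O2, 1 array stood apart from the other 3 by Dixon's test for 4 of 56 genes checked, and chance flags about 1 in 20. PMVK had a log2 value of 8.15 in flask 7, above the other 3, which lay within 0.01 of each other. SCAP had 9.78 in flask 7, against 9.70 to 9.71 in the others. LPIN1 had 10.51 in flask 7, against 10.44 to 10.45 in the others. LSS had 9.57 in flask 10, against 9.64 to 9.66 in the others. Flask 7 thus held 3 of the 4 such values, all high and each within 0.2 of the others on the log2 scale.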

How the results depend on the processing

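No paired analysis was possible because the groups share no replicate numbers. No member reversed direction under any alternative where it was called. Members called in every setting were 31 of 31 for HepG2S1 with the drug against HepG2, 8 of 12 on withdrawal, 7 of 11 at 2% O2, 25 of 26 for withdrawn cells against HepG2 and 12 of 15 for 2% O2 against withdrawn cells. On withdrawal, TM7SF2 made 1 sterol enzyme lower in place of 0 with the compared groups alone or array weights, array weights gave 7 fatty acid enzymes higher in place of 3, and leaving out 1 array gave 4 to 6 sterol enzymes higher and 0 to 1 regulators lower. At 2% O2, NSDHL made 1 sterol enzyme higher in place of 0 with trend and robust moderation, array weights or HepG2S1 arrays alone. There 6 sterol enzymes were lower in place of 3 with 75th percentile scaling, 0 fatty acid enzymes were higher in place of 1 with that scaling or repeated quantile normalization, and 2 were lower in place of 4 with the compared groups alone. Leaving out 1 array at 2% O2 or 20% O2 gave 0 to 1 regulators lower, 0 to 1 fatty acid enzymes higher and 2 to 3 lower. For withdrawn cells against HepG2 it gave 1 to 2 regulators higher. For 2% O2 against withdrawn cells it gave 6 to 8 sterol enzymes lower and 0 to 1 fatty acid enzymes higher. There SREBF2 made 2 regulators lower in place of 1 with both other scalings, and ACACB made 1 fatty acid enzyme higher in place of 0 with array weights or HepG2S1 arrays alone. Array weights raised calls over all genes to 5231 on withdrawal, in place of 3303, to 4568 at 2% O2, in place of 2786, and to 5178 for 2% O2 against withdrawn cells, in place of 3412. The cause of these moves was not tested. The filter on low genes left 12312 genes and dropped THRSP. With 3 or 4 arrays a group, many of the calls on withdrawal and at 2% O2 rest on changes of under 0.3 on the log2 scale, and an array gives no depth.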

Other observations

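The other lists of the pathway were also set against HepG2 after withdrawal, where 29.6% of all genes were higher and 27.0% lower. Of 10 isoprenoid branch enzymes 3 were higher, 3 lower and 4 did not pass, with NUS1 at -0.54 and PDSS1 at 0.54. Of 16 genes of SREBP processing and sterol sensing 7 were higher, 5 lower and 4 did not pass, with USF1, an E-box factor, at 0.92 and SP1 at 0.82. Of 18 genes of sterol transport 3 were higher, 9 lower and 6 did not pass, with ABCA1 at -4.54 and OSBPL1A at 4.18. Of 25 genes of fatty acid supply 10 were higher, 11 lower and 4 did not pass, with ACSL5 at -5.92 and ELOVL2 at -5.67.

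The same lists were also counted between HepG2S1 cells with sorafenib at 2% O2 and withdrawn cells at 20% O2, where 18.6% of all genes passed, against 56.6% for withdrawn cells against HepG2. Of the isoprenoid enzymes 1 was higher and 2 were lower, with PDSS1 at -0.57 and DHDDS at 0.23. Of the SREBP processing genes RNF145, at 0.41, was higher and NFYA, at -0.26, was lower. Of the sterol transport genes 4 were higher and 3 lower, with LPCAT3 at -0.56 and NPC2 at 0.39. Of the fatty acid supply genes 2 were higher and 5 lower, with LPIN1 at -0.72 and MID1IP1, a partner of acetyl-CoA carboxylase, at -0.35.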
